A study of Mus musculus with 3 samples.

Results

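The BCL-2 family decides whether a cell keeps its mitochondria intact or dies, and 10 of its mouse genes were examined here for H3K27ac, the acetyl mark on lysine 27 of histone H3 that is found at promoters and enhancers in use. The 10 were taken by name and placed at their RefSeq positions, out of 21887 protein-coding genes. They are 3 anti-apoptotic genes (Bcl2, Mcl1, Bcl2l1), 2 effectors (Bax, Bak1) and 5 BH3-only genes (Bcl2l11, Bbc3, Bid, Bad, Pmaip1). H3K27ac was mapped by ChIP-seq in CD4-CD8- thymocytes, further labelled CD25+CD44-/+, that were sorted from C57BL/6J mice 5 to 7 weeks old; chromatin was pulled down with an antibody to histone H3 and then with one to H3K27ac. All samples are wild type and untreated, with 2 H3K27ac replicates. An input sample taken before the H3K27ac antibody was not analysed here. Nothing in the labels says whether the replicates came from separate animals. With 1 condition there is no group to compare, so the values are descriptions and no test was made. In a bulk sample, a mark in few of the cells and a weak mark in many cannot be told apart.

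Anti-apoptotic proteins such as BCL-2 hold the effectors BAX and BAK in check at the outer mitochondrial membrane. BH3-only proteins are the sensors of stress: they bind the anti-apoptotic proteins or act on the effectors, which then form pores, release cytochrome c and start the caspase cascade. In the thymus this balance is known to remove cells that fail to make a working receptor chain or that recognise self, and interleukin-7 is known to keep early thymocytes alive partly through BCL-2 and MCL-1. Acetylation is not a measure of RNA, and RNA was not analysed here.

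All 3 anti-apoptotic genes had a peak near an annotated start in at least 1 replicate. Within 1 kb of a start listed by RefSeq, Bcl2, Mcl1 and the BH3-only gene Bbc3 had a peak in both replicates, which makes 3 of 9 members, against 18.2% of all genes with a listed start. Bcl2l1 had one in replicate 2 alone. Bax and Bak1 had one in replicate 1 alone, and Bcl2l11, Bid and Bad had none in either. Thus 6 of the 9 members with a listed start had such a peak in either replicate (32% of all genes), 5 in replicate 1 (26.4%) and 4 in replicate 2 (23.7%). The sequences before 6 of these starts are shown because they stand for a start peak in both replicates (Bcl2, Mcl1, Bbc3), in replicate 1 alone (Bax) and in neither (Bcl2l11, Bid). For Bbc3 and Bcl2l11 the most upstream of several starts is shown. Each line holds the 250 bases before a start, 5′ to 3′ on the strand of the gene, from RefSeq (GRCm38.p6, the assembly of mm10). Capitals mark matches, on either strand, to any of 8 short motifs. The general promoter motifs were the GC box (letters GGGCGG), the box named after its letters CCAAT and the TATA box (letters TATAAA). The motifs of factor families were the E-box bound by MYC and its relatives (letters CACGTG), the core bound by Ets factors (letters CCGGAA) and the core of the cAMP response element (letters TGACGT). The last were the core bound by Runx factors (letters TGTGGT) and the core bound by Foxo factors (letters GTAAACA).
Bcl2, chr1:106714291-106714540, minus strand: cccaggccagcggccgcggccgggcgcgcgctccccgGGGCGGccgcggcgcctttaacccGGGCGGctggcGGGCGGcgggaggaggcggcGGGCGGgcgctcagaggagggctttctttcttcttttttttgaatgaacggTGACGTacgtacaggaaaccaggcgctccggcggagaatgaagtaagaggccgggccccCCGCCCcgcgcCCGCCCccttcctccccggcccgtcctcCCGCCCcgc
Mcl1, chr3:95658471-95658720, plus strand: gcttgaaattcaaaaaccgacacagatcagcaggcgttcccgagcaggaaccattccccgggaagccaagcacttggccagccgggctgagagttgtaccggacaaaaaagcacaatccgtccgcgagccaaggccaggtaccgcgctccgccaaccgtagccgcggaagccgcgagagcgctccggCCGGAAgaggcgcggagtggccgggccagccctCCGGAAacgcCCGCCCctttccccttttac
Bbc3, chr7:16309333-16309582, plus strand: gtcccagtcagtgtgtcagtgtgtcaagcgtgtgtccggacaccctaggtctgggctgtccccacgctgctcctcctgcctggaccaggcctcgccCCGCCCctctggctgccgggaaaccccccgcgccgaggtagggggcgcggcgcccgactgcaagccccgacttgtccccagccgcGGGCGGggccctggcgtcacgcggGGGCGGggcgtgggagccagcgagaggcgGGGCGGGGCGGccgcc
Bax, chr7:45466899-45467148, minus strand: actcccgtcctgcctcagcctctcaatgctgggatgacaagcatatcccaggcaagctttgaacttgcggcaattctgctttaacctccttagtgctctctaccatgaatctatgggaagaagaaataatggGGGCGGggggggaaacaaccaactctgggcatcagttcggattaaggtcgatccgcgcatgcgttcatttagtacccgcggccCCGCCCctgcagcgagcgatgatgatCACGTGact
Bcl2l11, chr2:128125788-128126037, plus strand: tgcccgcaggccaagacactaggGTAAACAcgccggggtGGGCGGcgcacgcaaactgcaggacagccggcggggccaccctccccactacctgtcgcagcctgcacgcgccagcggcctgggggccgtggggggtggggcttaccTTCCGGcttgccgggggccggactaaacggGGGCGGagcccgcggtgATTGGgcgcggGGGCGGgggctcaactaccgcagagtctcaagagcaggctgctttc
Bid, chr6:120916825-120917074, minus strand: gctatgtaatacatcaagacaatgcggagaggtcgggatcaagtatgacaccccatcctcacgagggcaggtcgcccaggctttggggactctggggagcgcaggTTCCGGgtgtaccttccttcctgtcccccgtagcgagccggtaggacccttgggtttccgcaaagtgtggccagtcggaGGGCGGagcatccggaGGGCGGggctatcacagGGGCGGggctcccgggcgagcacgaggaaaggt

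The Mcl1 window lay under a peak over all 250 bases in both replicates. The Bcl2 window lay under the replicate 1 peak over all 250 bases and under no replicate 2 peak, which ended 72 bp inside the gene. In the Bbc3 window shown, 184 bases lay under the replicate 1 peak and 0 under that of replicate 2. The windows of the other Bbc3 starts had 79 and 0 bases under the replicate 1 peak and 250 each under that of replicate 2. The Bax window had 153 bases under the replicate 1 peak. The windows of Bcl2l11 and Bid had 0 in either.

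CpG and GC boxes varied among the members. The 6 windows shown held at least 1 GC box each and more CpG than the median of all windows, while the Bak1 window held 8 CpG and the Bcl2l1 windows 0, 11 and 12, with 0 GC boxes in any of these. In the windows shown, CpG counts per 250 bases were 36 for Bcl2, 26 for Mcl1, 27 for Bbc3, 14 for Bax, 24 for Bcl2l11 and 18 for Bid. The median was 21 over the 15 start windows of the members and 10 over 21263 windows of all protein-coding genes, which include several starts of some genes. GC boxes, of which overlapping copies were counted separately, numbered 7 at Bcl2, 5 at Bbc3, 3 each at Bcl2l11 and Bid, 2 at Bax and 1 at Mcl1. A GC box was present in 10 of the 15 member windows and in 42.6% of all windows. Mcl1 held 2 Ets cores, against 1 each at Bcl2l11 and Bid (15% of all windows have any). Bcl2 held 1 cAMP response core (7.37%), Bax 1 E-box (6.63%) and Bcl2l11 1 Foxo core (2.62%) and 1 CCAAT box (35.4%). No TATA box was found in the 15 member windows, against 11.6% of all windows, and the Runx core (12.4% of all windows) was in none of the 6 printed. None of these motifs is contained in another. A match is a stretch of letters and was not tested as a binding site.

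**Figure D1:**
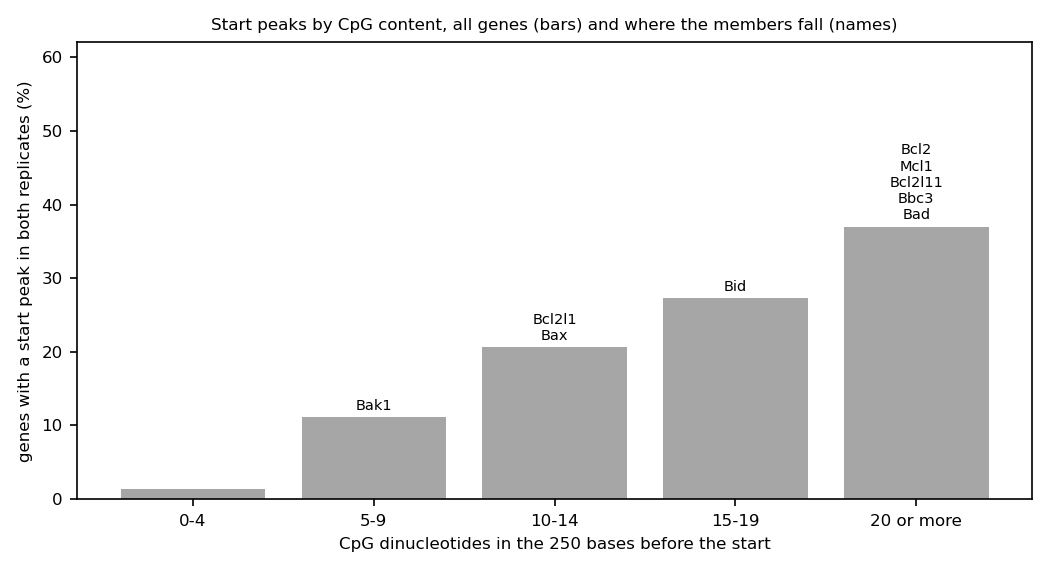
Percent of protein-coding genes with a start peak in both replicates (vertical axis) in classes of CpG count in the 250 bases before the start (horizontal axis, the most CpG-rich start of each gene). Names give the class of the 9 members with a listed start: 5 fall in the class of 20 or more, of which 37% of all genes had a start peak in both replicates, and Bcl2, Mcl1 and Bbc3 are the members of it that had one.

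Over all genes with a listed start, start peaks in both replicates grew more frequent with CpG count, as the plot by CpG class shows. They were present at 1.35% of genes with 0 to 4 CpG and at 37% of genes with 20 or more. Of the 5 members in the CpG-richest class, Bcl2, Mcl1 and Bbc3 had a start peak in both replicates, and Bcl2l11 and Bad had none in either. Bid, with 15 to 19 CpG, had none, in a class where 27.3% of all genes had one in both.

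Bcl2, whose product gives the family its name, had a peak over or beside its start in both replicates and another deep in the gene. The gene lies on chromosome 1 (106538176 to 106714290, minus strand). At the start, the replicate 1 peak was 1903 bp wide (106713059 to 106714961) with a fold enrichment of 1.83, and the replicate 2 peak was 1635 bp wide (106712584 to 106714218) with a fold of 3.38. Fold enrichment is the height of a peak over its background, as the authors' caller gave it. The replicates shared 1160 bp there. The −log10 q, the caller's p-value after its adjustment for multiple tests, was 0.554 in replicate 1 and 2.80 in replicate 2. The replicate 1 value is weak: 12.4% of the peaks of that list were weaker, against 81.8% in replicate 2.

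Inside Bcl2, 100927 to 112759 bp from its start, replicate 1 listed 4 peaks between 106601182 and 106613363, and replicate 2 listed 1. The replicate 2 peak (106612933 to 106613342, 410 bp) lay wholly within the widest of the 4 (106612061 to 106613363, 1303 bp). Its fold was 4.14 in replicate 2, above 94.8% of peaks in that list, and 2.34 in replicate 1. The −log10 q was 3.19 in replicate 2 and 0.974 in replicate 1. This position is also inside Gm37053, annotated as a long non-coding RNA gene (106603763 to 106614945). Whether it is exonic or intronic in Bcl2 was not analysed here. At 176115 bp, Bcl2 is longer than 94.7% of protein-coding genes, and bp covered by both replicates in the body were present in 22% of the genes of at least 50 kb and in 17.2% of all genes.

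Mcl1, which encodes a short-lived survival protein that thymocytes of mice are known to need, had the widest peak of the family. In replicate 1 it spanned 3394 bp (95656600 to 95659993 on chromosome 3), wider than 99.3% of that list, with a fold of 2.70 and −log10 q of 1.57. The replicate 2 peak spanned 1733 bp (95658431 to 95660163), wider than 95.1% of its list, with a fold of 2.01 and −log10 q of 1.32. Both covered the start at 95658721, and they shared 1563 bp. Mcl1 was the only one of the 9 members with a listed start whose start peaks had q of at most 0.05 in both replicates, as 2.96% of all genes did. The annotated 5′ end of the gene, 95656944, lies upstream of that start. The replicate 2 peak was 1487 bp from it, so by gene ends alone Mcl1 had a peak in replicate 1 only.

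Downstream of Mcl1 the replicates listed different peaks. Replicate 1 had 1 of 663 bp (95669070 to 95669732) with a fold of 3.90 and −log10 q of 3.58, which lay 5891 bp past the gene. Replicate 2 had 1 of 935 bp (95673274 to 95674208) with a fold of 3.05 and −log10 q of 6.34, inside Gm52627, annotated as a long non-coding RNA gene (95672172 to 95676242), and 1993 bp from the neighbour Adamtsl4. It also had 1 of 361 bp inside Adamtsl4. None of the 3 overlapped a peak of the other replicate.

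Bcl2l1, which encodes BCL-XL, known for the survival of later, double positive thymocytes, was marked mainly in its body. A peak of 795 bp in replicate 1 (152788681 to 152789475 on chromosome 2) lay wholly within one of 1455 bp in replicate 2 (152788123 to 152789577). Their folds were 2.37 and 2.07, with −log10 q of 1.02 and 0.835, neither with q of at most 0.05. The shared stretch was 39014 bp from the nearest listed start. Near the starts, only replicate 2 had a peak, 243 bp wide and 129 bp from the start at 152830717, with a fold of 2.75. All 3 anti-apoptotic genes thus had bp covered by both replicates within the gene, 1570 bp in Bcl2, 1563 bp in Mcl1 and 795 bp in Bcl2l1. Such coverage was present in 17.2% of all genes and in 22% of those of at least 50 kb, as Bcl2 and Bcl2l1 are.

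**Figure D2:**
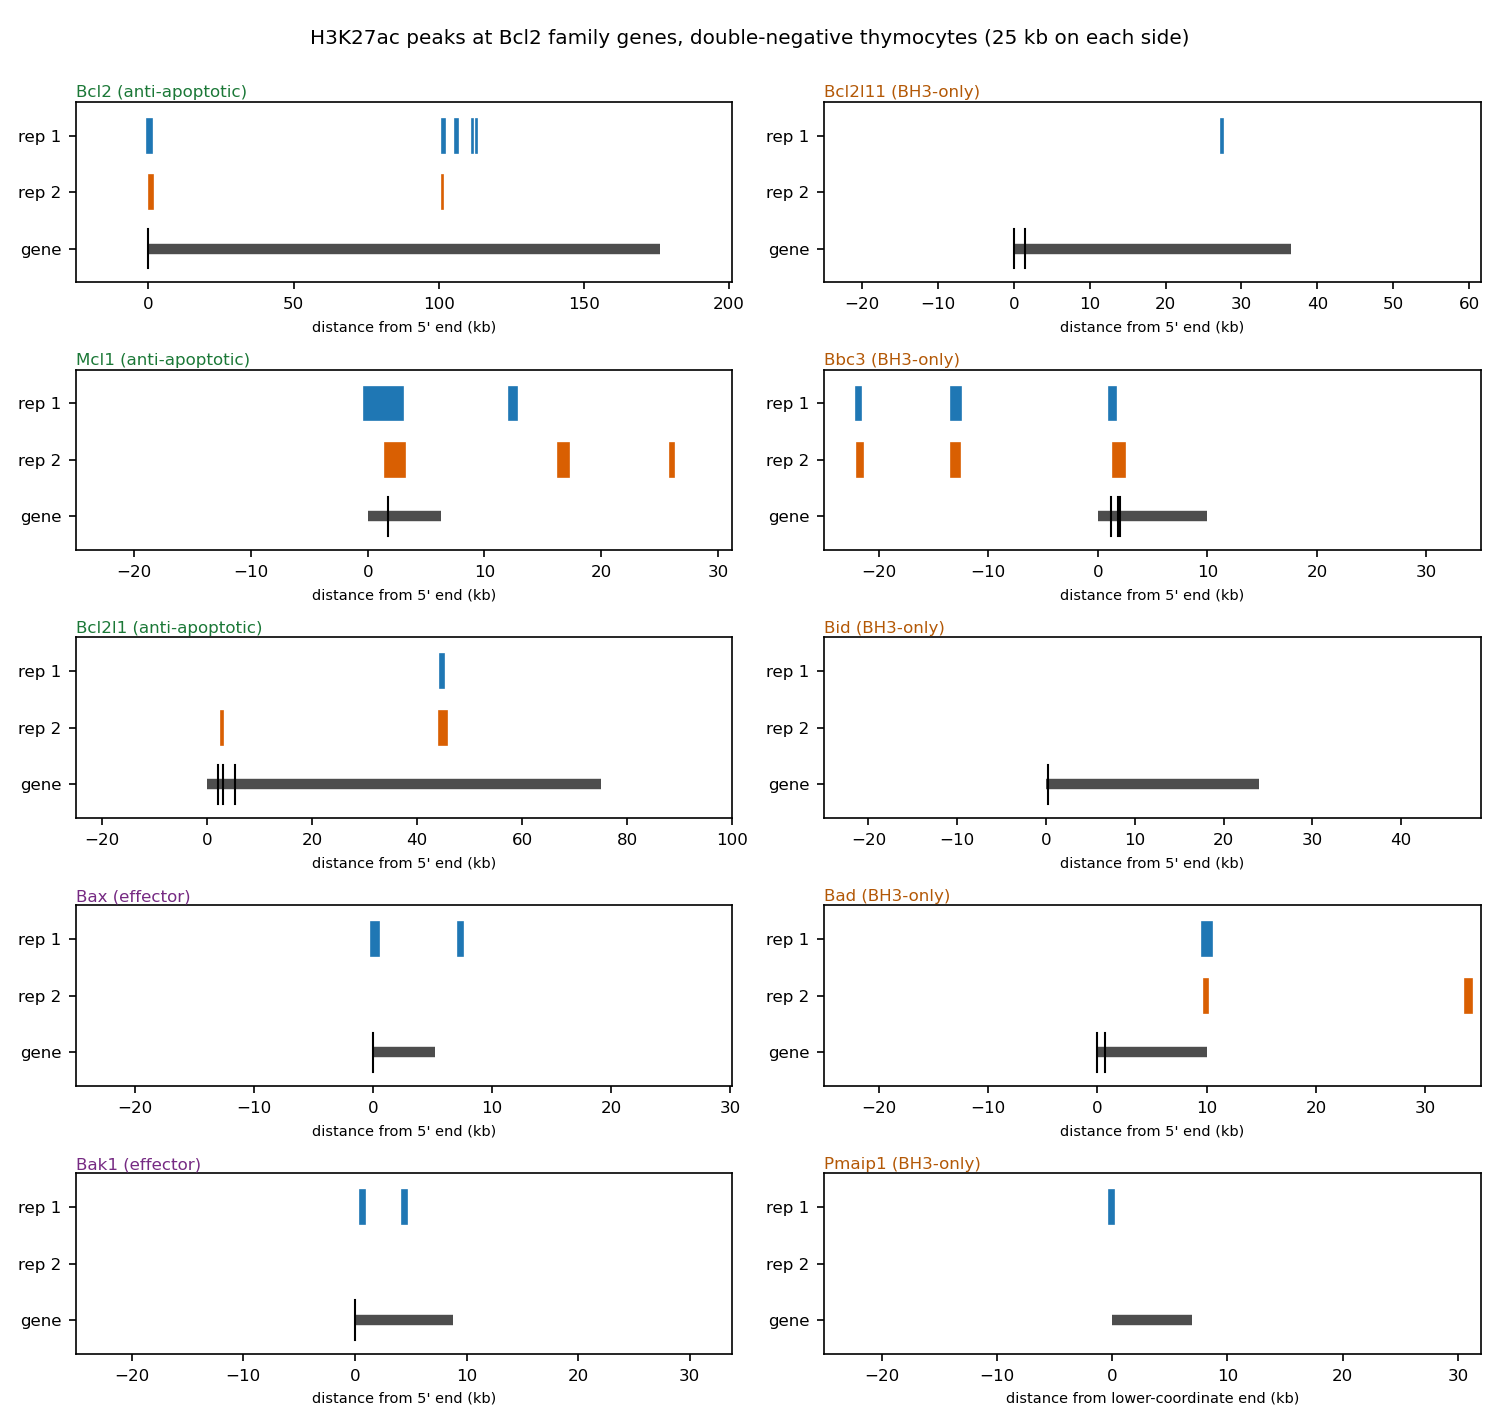
H3K27ac peaks of replicate 1 (blue) and replicate 2 (orange) at each of the 10 genes, with 25 kb on each side; grey bars are the genes and black ticks the listed starts, and the horizontal axis is the distance in kb from the 5′ end (for Pmaip1, from the lower-coordinate end). Paired blue and orange bars stand at Bcl2, Mcl1, Bcl2l1, Bbc3 and Bad, blue bars alone at Bax, Bak1, Bcl2l11 and Pmaip1, and Bid has none.

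The effectors had no peak within 25 kb in replicate 2. Bax, a pore-forming effector on chromosome 7 (45461695 to 45466903), had a replicate 1 peak of 660 bp over its start (45466392 to 45467051), with a fold of 2.14 and −log10 q of 0.768. A second replicate 1 peak near Bax lay inside the adjacent gene Ftl1, the ferritin light chain, 103 bp from its start, with a fold of 2.53. The nearest replicate 2 peak to Bax was 27048 bp away.

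Bak1, which encodes the other effector, BAK, lies on chromosome 17 (27019812 to 27028627) inside the larger annotated span of Ggnbp1. Replicate 1 had 2 peaks in it, 1 of 447 bp at 462 bp from the start and 1 of 454 bp further in. Their folds were low, 1.64 and 1.47, while their −log10 p was high, 8.08 and 7.21. Such a pairing, a fold under 2 with −log10 p of at least 5, was found in 12.9% of replicate 1 peaks on chromosome 17 and in 0.35% of those outside chromosomes 6, 9, 14 and 17. Its part in the Bak1 peaks was not tested. In replicate 2 the nearest peak was 86840 bp away.

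Among the BH3-only genes, Bbc3 was marked near its starts in both replicates. It encodes PUMA, known as a target of p53. The gene lies on chromosome 7 (16308398 to 16318334, plus strand) and has 3 listed starts, at 16309583, 16310261 and 16310431. The replicate 1 peak (16309399 to 16310089, 691 bp) covered the most upstream of them and the replicate 2 peak (16309786 to 16310841, 1056 bp) the other two. They shared the 304 bp between, with folds of 1.91 and 2.43 and −log10 q of 0.561 and 1.11, neither with q of at most 0.05. The replicate 1 peak was 1001 bp from the annotated 5′ end and the replicate 2 peak 1388 bp, both just outside a window of 1 kb, so that by gene ends alone Bbc3 had no peak.

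Upstream of Bbc3 a further pair of shared peaks was listed. The nearer covered 797 bp in both replicates (16295025 to 16295821), 13762 bp from the nearest start, with folds of 2.59 and 2.22 and −log10 q of 1.14 and 0.817. The other (308 bp, 16286434 to 16286741) lay inside the neighbour Ccdc9, within 1 kb of its 5′ end, with folds of 2.87 and 2.17. The nearer pair had its closest other protein-coding gene, Ccdc9 again, 8218 bp away in replicate 1, closer than Bbc3 itself at 12523 bp.

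Bad, which encodes a BH3-only protein held inactive by phosphorylation, had shared acetylation at its 3′ end and not at its starts. The gene lies on chromosome 19 (6941861 to 6951905, plus strand), with listed starts at 6941861 and 6942562. A replicate 1 peak of 902 bp (6951422 to 6952323) and a replicate 2 peak of 389 bp (6951594 to 6951982) both crossed the 3′ end, and the replicate 2 peak lay wholly inside that of replicate 1. The folds were 3.02 and 4.84, above 88.7% and 97.2% of the peaks in their lists, and the −log10 q was 2.62 and 7.40. The nearest listed start of Bad was 9032 bp from the shared stretch. The next gene, Plcb3, lies on the minus strand and meets Bad with its 3′ end, 1385 bp from the replicate 1 peak. Bad was the only member whose gene-end peaks had q of at most 0.05 in both replicates, as 2.64% of all genes did. A further replicate 2 peak in the 25 kb window, with a fold of 5.20, lay inside the neighbour Ppp1r14b.

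Bcl2l11, Bid and Pmaip1, like Bax and Bak1, had no bp covered by both replicates in the gene or within 25 kb of an end. Of all genes, 30.3% had such bp within 25 kb of an end. Bcl2l11 encodes BIM, known in mice to be needed for the deletion of self-reactive thymocytes. Its span on chromosome 2 (128126038 to 128162547) held 1 peak, in replicate 1, of 278 bp with a fold of 1.29 and −log10 q of 0.387, which exceeded 2.09% of that list. The 5′ end of Bcl2l11 overlaps the annotated span of the neighbour Acoxl. In replicate 2 the nearest peak to the gene was 74870 bp away. Bid, whose product links death receptors to the mitochondria, had no peak within 25 kb in either replicate. The nearest peaks to Bid were 49678 bp (replicate 1) and 49995 bp (replicate 2) from the gene, on chromosome 6. Pmaip1 encodes NOXA, which binds MCL-1, and lies on chromosome 18 (66458604 to 66465558). A replicate 1 peak of 483 bp covered its lower-coordinate end, with a fold of 3.23 and −log10 q of 1.403, and the nearest replicate 2 peak was 75464 bp away.

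**Figure D3:**
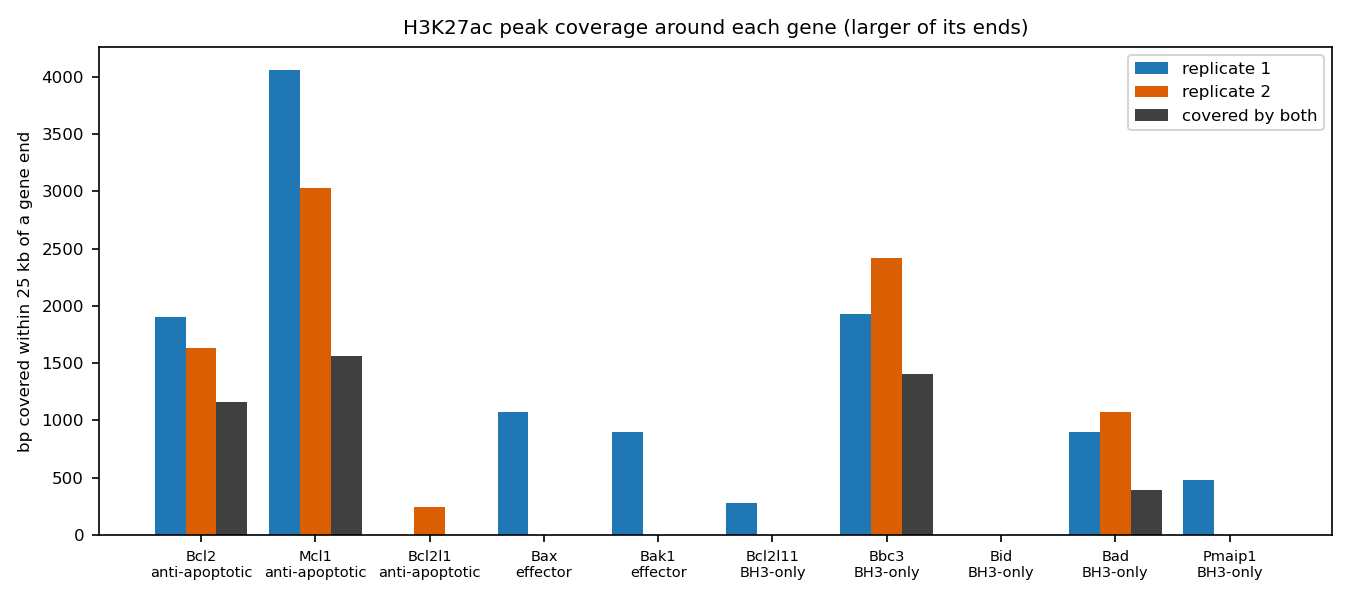
Base pairs covered by peaks within 25 kb of a gene end (vertical axis, the end with more) for each of the 10 genes, in replicate 1 (blue), in replicate 2 (orange) and in both (dark grey). Dark grey bars stand at Mcl1 (1563 bp), Bbc3 (1409 bp), Bcl2 (1160 bp) and Bad (389 bp) and at no other member.

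Within 25 kb of an end, 4 of the 10 genes had bp covered by both replicates, a share of 40% set against 30.3% of all protein-coding genes. Mcl1 had 1563 bp, more than 96.7% of genes, Bbc3 1409 bp (95.6%), Bcl2 1160 bp (93.5%) and Bad 389 bp (78.3%). Of the Bbc3 length, 304 bp lay within 10 kb of an end of the gene, and the rest was the upstream pair of shared peaks nearer to or inside Ccdc9. The median over the 10 was 0 bp, as over all genes. By class, 2 of 3 anti-apoptotic genes, 0 of 2 effectors and 2 of 5 BH3-only genes had such coverage. Within the gene itself, 3 of 3 anti-apoptotic genes, 0 of 2 effectors and 2 of 5 BH3-only genes had it, against 17.2% of all genes. The median gene length was 75.1 kb, 7.01 kb and 10 kb in these classes, and its part in the counts was not tested. Since these classes hold 2 to 5 genes, their counts describe these genes and were not tested against each other.

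By gene ends, 1 of 3 anti-apoptotic genes, 0 of 2 effectors and 1 of 5 BH3-only genes had a peak in both replicates. Such a peak within 1 kb of either annotated end was thus present at Bcl2 and Bad, 2 of 10, and at 16.8% of all genes. The 20% of the members is near that background. By listed starts, 3 of 9 members had a peak in both replicates (33.3%), against 18.2% of 17492 genes with a listed start. They were 2 of 3 anti-apoptotic genes, 0 of 2 effectors and 1 of 4 BH3-only genes. Moving from gene ends to starts added Mcl1 and Bbc3 and took Bad away.

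Replicate 1 marked more of the members than replicate 2. A gene-end peak in either replicate was present at 6 members, and at 30.5% of all genes. Replicate 1 had gene-end peaks at 6 members, Bcl2, Mcl1, Bax, Bak1, Bad and Pmaip1 (25.1% of all genes), and replicate 2 at 2, Bcl2 and Bad (22.2%). Within the genes and 25 kb on each side, replicate 1 listed 18 peaks at 9 members and replicate 2 listed 12 at 5. Of these 30 peaks, 16 overlapped a peak of the other replicate and 15 had q of at most 0.05. The share of all peaks that overlap the other replicate was not worked out here, so the 16 have no background. The share of all genes with a peak of 1 replicate in this window was not worked out either. The 9 and 5 members thus have no background. Replicate 1 had 12377 peaks in all and replicate 2 had 9477, with q of at most 0.05 in 27.1% and 41%. The depth of either library is unknown, and the part of list length in these differences was not tested.

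**Figure D4:**
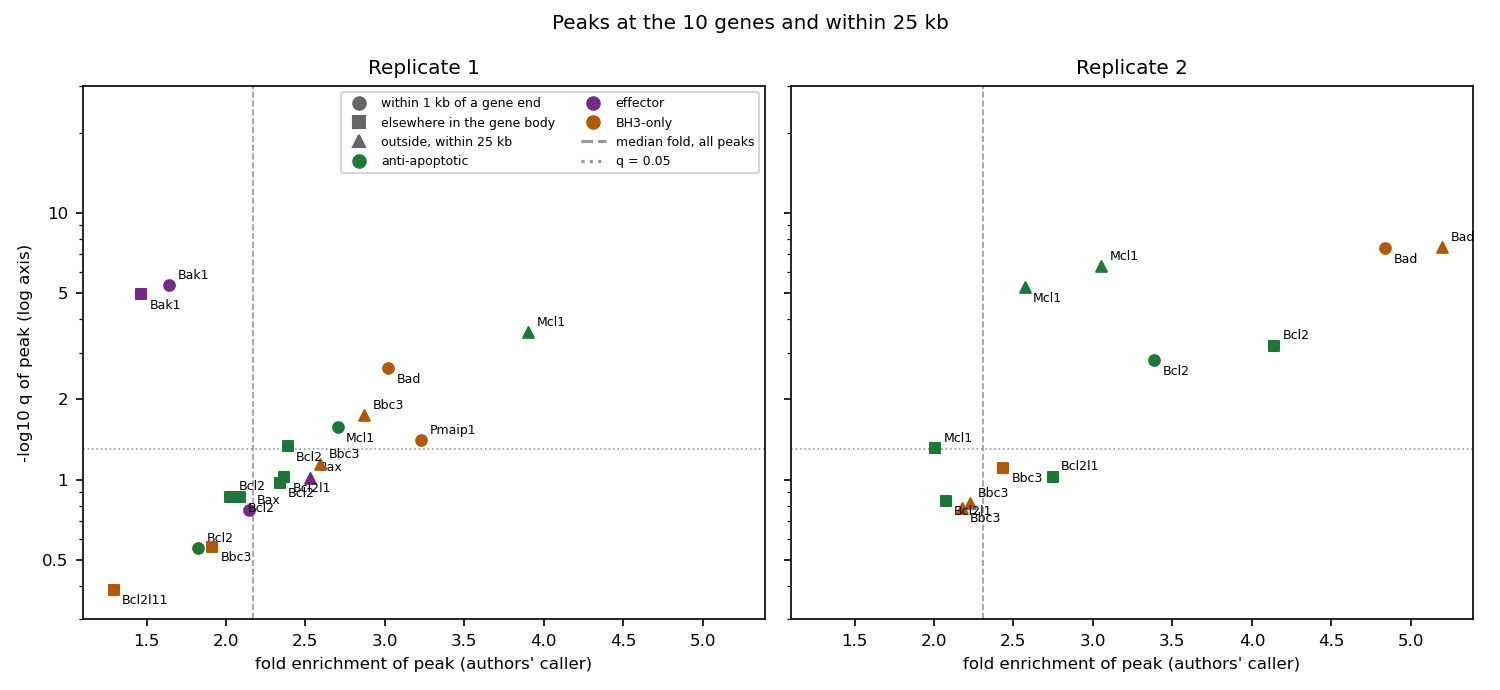
Each point is a peak at a member or within 25 kb of it, with its fold enrichment (horizontal axis) and −log10 q (vertical axis, log scale) in replicate 1 (left) and replicate 2 (right); colours give the class and symbols the position. Most points lie near the median fold of all peaks (dashed, 2.17 and 2.31), while the Bak1 peaks combine folds of 1.64 and 1.47 with high −log10 q and the 3′ end of Bad stands at 4.84 in replicate 2.

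Taken with those within 25 kb, the peaks had a median fold somewhat above that of all peaks in both replicates. Their median fold was 2.35 in replicate 1 and 2.66 in replicate 2, and that of all peaks 2.17 and 2.31. Of these peaks, 14 of 18 in replicate 1 and 7 of 12 in replicate 2 overlapped a member gene. In replicate 1 the peaks outside the genes had folds of 3.90, 2.53, 2.87 and 2.59, all above 2.17. The higher replicate 1 median therefore does not describe the peaks in the genes themselves. The highest fold was 3.90, downstream of Mcl1, in replicate 1 and 5.20, near Bad, in replicate 2. The median width was 661 bp and 756 bp, against 615 bp and 561 bp for all peaks.

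Genes that act with the family were read from 5 lists, 61 genes in all. Gene-end peaks in both replicates were present at 23 of the 61 (37.7%, against 16.8% of all genes), and start peaks at 17 of 49 with a listed start (34.7%, against 18.2%). Over all genes the start share ranged from 1.35% to 37% by CpG class, and the part of CpG count in the list shares was not tested. With q of at most 0.05 in both replicates, gene-end peaks were present at 1 of 13 other family members, 1 of 12 apoptosome and caspase genes, 4 of 12 caspase inhibitors and death receptor genes, 1 of 14 upstream regulators and 2 of 10 mitochondrial and turnover partners, against 2.64% of all genes. Of the genes so counted, Bcl2l13 and Htra2 lie on chromosome 6, Birc2 on 9, Vdac2 on 14 and Pim1 on 17. In replicate 1, q was at most 0.05 for 48.9%, 88.3%, 32.3% and 36.9% of peaks on chromosomes 6, 9, 14 and 17 (27.1% of all peaks). In replicate 2 these shares were 61.4%, 99.2%, 40.6% and 48.3% (41% of all peaks). Their part in these counts was not tested. Among 13 other members of the Bcl2 family, only Bcl2l13, a mitochondrial outer membrane protein, had a gene-end peak in both. It was tall, with folds of 7.47 and 4.004 and −log10 q of 20.5 and 8.31. Bcl2l13 is the neighbour of Bid on chromosome 6, and its peaks lay at its 5′ end (120836206), at the far side from Bid.

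Downstream of the family, 5 of 12 apoptosome and caspase genes had gene-end peaks in both replicates (16.8% of all genes), and 2 of 9 had start peaks in both (18.2%). Htra2, a mitochondrial protease released in apoptosis, had 1173 bp covered by both within 25 kb, and Casp2 had 974 bp. Htra2 and Casp2 lie on chromosome 6, with folds of 4.35 and 4.27 in replicate 1 and 1.98 and 1.19 in replicate 2.

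Caspase inhibitors and death receptor genes had gene-end peaks in both replicates in 6 of 12 cases (16.8% of all genes), and start peaks in 6 of 10 (18.2%). Birc6, a large inhibitor of apoptosis, had 1127 bp, Birc2, which encodes cIAP1, 1067 bp, Cflar, which encodes the caspase inhibitor c-FLIP, 663 bp, and Ripk1, a kinase of death receptor signalling, 597 bp. The folds at Cflar were 3.39 and 2.48 and at Ripk1 3.12 and 4.27, all with q of at most 0.05. At Birc2, on chromosome 9, the folds were 1.4004 and 1.16, with −log10 q of 11.4 and 4.99. Peaks on that chromosome combined low folds with high −log10 q in general, with medians of 1.44 and 9.76 in replicate 1 and 1.25 and 8.63 in replicate 2.

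Upstream regulators had gene-end peaks in both replicates in 6 of 14 cases (16.8% of all genes) and start peaks in 7 of 13 (18.2%). Foxo3, a transcription factor known to drive Bcl2l11, had 3010 bp covered by both, with folds of 2.26 and 2.10. Ddit3, which encodes CHOP of the stress response, had 2173 bp within 25 kb, with 0 bp in the gene itself. Stat5a, which acts below the interleukin-7 receptor, had 960 bp, with 184 bp in the gene itself. Trp53, which encodes p53, had 784 bp. The folds at Trp53 were 2.38 and 3.05. Of 10 mitochondrial and turnover partners, 5 had gene-end peaks in both (16.8% of all genes). Of the 6 with a listed start, 1 had a start peak in both (16.7%, against 18.2% of all genes). Usp9x, a deubiquitinase known to stabilise MCL-1, had 1706 bp, the channel genes Vdac1 and Vdac2 735 bp and 677 bp, and Bnip3l, a receptor of mitophagy, 552 bp.

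**Figure D5:**
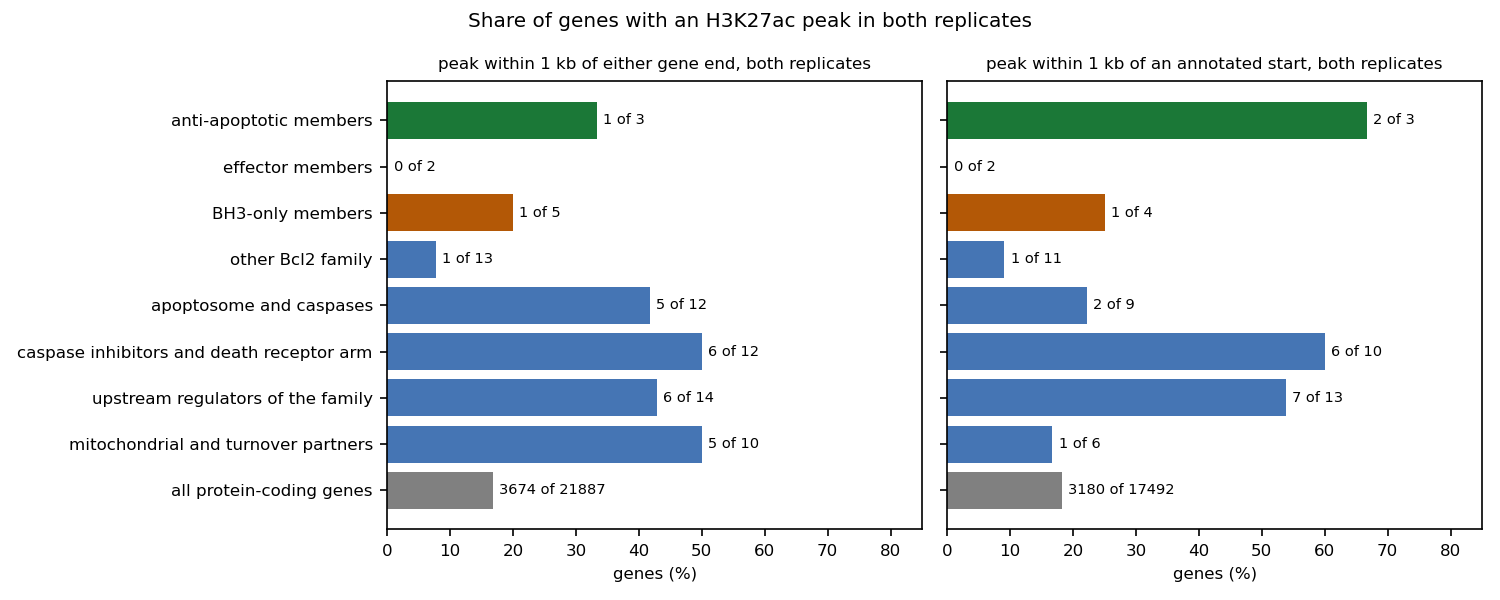
Percent of genes with a peak in both replicates (horizontal axis) within 1 kb of either gene end (left) and of a listed start (right), for the 3 classes, the 5 lists of related genes and, at the bottom, all protein-coding genes; counts stand beside the bars. The effectors are at 0 of 2 in both panels, and all genes at 16.8% and 18.2%.

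The labelled cell type was checked with marker genes. Of 16 genes of the double negative T lineage, 6 had a gene-end peak in both replicates (16.8% of all genes), namely Tcf7, Dntt, Kit and the 3 CD3 genes. The CD3 genes lie together on chromosome 9, where folds were low, and are not independent of one another. By starts, 9 of 15 with a listed start had a start peak in both (18.2% of all genes). Il2ra, which encodes the sorted marker CD25, was marked at a gene end by replicate 2 but not replicate 1, and Rag1 and Rag2 by neither. Gene-end peaks in both replicates were present at 0 of 6 later thymocyte genes, and among 24 genes of B cells, myeloid cells, NK and innate cells and stroma at 1, Nkg7, while 0 of the 17 with a listed start had a start peak in both.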

How the data were processed

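H3K27ac was measured in 2 replicates of sorted double negative thymocytes. The submitters' processing notes name Bowtie2, mm10 and MACS 1.4.2, but the authors' files are laid out as MACS2 writes them, which leaves the version uncertain. Duplicates were removed and peaks called per library, per the peak names in the deposited files. Neither the cutoff nor any use of the input is given there. The fold enrichment (a ratio), the −log10 p-value and the −log10 q-value of each peak are values the authors deposited, used only to describe peaks. The score that the authors deposited was not used. The files hold no read counts, so depth is unknown and no interval can be given.

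Peaks on the assembled chromosomes were read against 21887 protein-coding genes of RefSeq (GRCm38.p6), each counted once per symbol. Gene-end peaks overlap the 1 kb on either side of an annotated end. A gene-end or start peak in both replicates does not require that the peaks overlap each other. Birc5 and Nkg7, for example, had gene-end peaks in both but 0 bp covered by both within 25 kb. Starts and strands come from RefSeq promoter sequences, which matched 17492 genes and 9 of the 10 members, all but Pmaip1. Coverage within 25 kb counts bp under peaks of both replicates (overlap of at least 1 bp), at the end with more.

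The members, lists, tests and alternatives were chosen with earlier results of these data known, and the motifs after the members' sequences had been seen. The text names the members, the related genes with gene-end peaks in both replicates (of each list, the 4 with most shared bp) and nearer neighbours of peaks. Some genes that this rule takes are not reported here. Apaf1, Fas, Il7r, Kdsr, Mical3, Prdx5, Tulp2 and the marker genes named were chosen after their values were seen. The interval code was tested on simulated data: 200 of 200 planted genes were found, and 0 of 21887 windows differed from bedtools. Python 3.11.15, numpy 2.4.6, pandas 2.3.3 and matplotlib 3.10.9 were used.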

Additional observations from a re-analysis of the deposited data

How the results depend on the processing

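No test was made, so the settings change counts and lengths only. Gene-end peaks in both replicates stood at 2 of 10 members (anti-apoptotic 1, effector 0, BH3-only 1), coverage by both within 25 kb at 4, and its median at 0 bp. With q of at most 0.05 these were 1 (anti-apoptotic 0) and 2 members, and with q of at most 1e-05 0 and 0 (anti-apoptotic 0, BH3-only 0), where 2.64% and 0.731% of all genes had gene-end peaks in both. With the 10000 peaks of smallest p, 1 member had gene-end peaks in both (anti-apoptotic 0), Bcl2 being lost, against 14.4% of all genes, and 3 were covered. Replicate 2 has 9477 peaks, so this setting shortened the replicate 1 list alone. A peak in either replicate gave 6 (2 anti-apoptotic, 2 effector, 2 BH3-only; 30.5% of all genes), 9 members covered and a median of 989.0 bp.

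Leaving out replicate 1 gave 2 members with gene-end peaks (22.2% of all genes), and leaving out replicate 2 gave 6 (25.1%). By class these were 1 and 2 anti-apoptotic, 0 and 2 effector, and 1 and 2 BH3-only genes. Covered members numbered 5 and 8, with medians of 121.5 and 901.5 bp. The higher values are those of replicate 1 alone. Coverage of all genes was counted in the main setting alone (30.3%), so the covered counts of the other settings have no background here. A gene-end window of 2.5 kb gave 4 (2 anti-apoptotic, 2 BH3-only; 18.9% of all genes), adding Mcl1 and Bbc3. Listed starts alone gave 2 anti-apoptotic genes. For the related lists, q of at most 0.05 lowered the gene-end counts from 5 to 1 (apoptosome and caspases), 6 to 4 (inhibitors and death receptors), 6 to 1 (upstream regulators) and 5 to 2 (mitochondrial partners); a peak in either replicate gave 3, 9, 7, 10 and 8 in the 5 lists, other family members first, and starts alone 1, 2, 6, 7 and 1. A reciprocal overlap of 50% left 2 members covered, Bcl2 and Bbc3, and a window of 50 kb gave 7 and a median of 500.5 bp. A window of 500 bp or 10 kb, or leaving out chromosomes 6, 9, 14 and 17 (8 members left), kept each of these counts within 1.5 times, but the 10 kb window left 304 bp of the 1409 bp covered by both at Bbc3; the median without those chromosomes was 194.5 bp. No paired analysis was possible because the replicates belong to a single group. Depth is unknown, so an absent peak does not show absent acetylation.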

Other observations

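Between 25 and 50 kb from the members, shared peaks of high fold lay at other genes. A pair of peaks, 31496 bp (replicate 1) and 31341 bp (replicate 2) from Bad, overlapped Prdx5, a peroxiredoxin gene, with folds of 4.45 in replicate 1 and 6.52 in replicate 2 and 837 bp covered by both. The peaks nearest to Bid, about 50 kb away, lay inside Mical3, with folds of 5.30 and 5.46 and −log10 q of 10.8 and 10.6. Past the start of Bcl2, peaks sharing 1002 bp crossed the 5′ end of Kdsr, at 44954 bp from Bcl2, with folds of 4.28 and 3.797. Each of these 6 peaks exceeded 92.6% to 99.3% of the folds in its list. A weaker pair, 206 bp covered by both and folds of 1.79 and 1.71, lay inside Tulp2, 43085 bp from Bax.

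A gene-end peak in both replicates was present at 23 of the 61 related genes and at 16.8% of all genes, so most genes lacked one. Il7r, the interleukin-7 receptor alpha chain, and Apaf1, the scaffold of the apoptosome, each had one in replicate 1 alone. Fas, a death receptor, had no bp under a peak within 25 kb in either replicate.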
